A study of Mus musculus with 4 samples.

Results

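The genes of the mitochondrial ribosomal proteins were examined in the H3K27ac peak list of mouse Th17 cells. They were taken as every protein-coding gene whose symbol begins with Mrpl or Mrps followed by a number, which gave 78 of the 21631 protein-coding genes that the RefSeq table places on the autosomes and the X chromosome (GRCm38.p6). Of these, 49 are named for the large subunit (Mrpl) and 29 for the small subunit (Mrps). Counts by subunit below follow the symbol only, and the place of each protein in the ribosome was not checked. H3K27ac, acetylation of lysine 27 of histone H3, marks active promoters and enhancers. It was profiled by ChIP-seq, in which DNA bound to the marked histone is precipitated with an antibody and sequenced. Th17 cells were grown from naive CD4+ T cells taken from the strain C57BL/6. Culture lasted 72 h with antibodies to CD3ε (0.25 µg/mL) and CD28 (1 µg/mL) and with the cytokines IL-6 (20 ng/mL) and TGF-β (0.1 ng/mL by the treatment label, while the growth protocol gives a range that begins there), and 2 H3K27ac libraries and 2 input DNA libraries were made, 1 of each per biological replicate. No untreated cells or other T cell state was analysed here. The deposited data are 1 list of 56285 peak positions, without a height, a score or a value per library. A gene therefore has peaks and covered bases here, not a signal, no value has a replicate error, no difference was tested, and read depth is unknown.

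Most marker genes followed the labelled cell type. All 7 Th17 marker genes examined, Il17a and Il17f among them, had a peak at their start and between 9408 and 29048 bp under peaks, and so did all 4 T cell markers, with 6245 to 34635 bp. None of the 4 myeloid markers had a start peak (0 to 156 bp), and neither liver marker had any peak. Of the 3 B cell markers, Ebf1 went the other way, with a start peak and 28970 bp under 32 peaks, close to the highest Th17 marker, Stat3 (29048 bp). Ebf1 is a much longer gene (chr11:44618100-45008096) than Stat3 (chr11:100886806-100939594), so its window held more DNA. Pax5 had 554 bp in 2 peaks away from its start, and Ms4a1 had none. Of the 3 erythroid markers Klf1 had a start peak and 3178 bp, and Hba-a1 and Gata1 had no peak. The part of such cells in the values below was not tested.

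Mitochondrial ribosomes translate the messages that mitochondrial DNA encodes, which are subunits of the respiratory chain and of ATP synthase. Their RNAs come from mitochondrial DNA, but all their proteins are encoded in the nucleus, made on cytosolic ribosomes and imported. The small subunit reads the message and the large subunit joins the amino acids. T cells build up mitochondria and their translation machinery after activation.

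Many of these genes stand back to back with another gene, the starts on opposite strands and close together, so that 1 stretch of DNA serves both. A head-to-head neighbour was counted where a protein-coding gene on the other strand starts at most 1000 bp away. The sequences of 7 such stretches are printed first because a peak on them cannot be assigned to either gene. They are 5 of the closest pairs, read from the RefSeq promoter table (GRCm38.p6), and the stretches shared with a mitochondrial helicase gene (Twnk) and a mitochondrial tRNA synthetase gene (Sars2). Each is read 5′ to 3′ in the direction of the ribosomal protein gene named first. Capitals mark the bases from the start of the neighbour to the start of that gene, and lower case the 30 bases beyond either start.
Mrpl21 and Ighmbp2, chr19:3282980-3283072, plus strand: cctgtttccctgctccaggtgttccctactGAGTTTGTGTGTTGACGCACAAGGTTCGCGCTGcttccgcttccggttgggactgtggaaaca
Mrps11 and Mrpl46, chr7:78783059-78783161, plus strand: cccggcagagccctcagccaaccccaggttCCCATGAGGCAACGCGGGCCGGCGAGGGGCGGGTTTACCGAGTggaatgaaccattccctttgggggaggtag
Mrpl27 and Eme1, chr11:94653713-94653821, plus strand: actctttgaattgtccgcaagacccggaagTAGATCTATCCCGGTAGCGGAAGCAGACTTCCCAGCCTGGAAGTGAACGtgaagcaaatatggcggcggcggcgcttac
Mrpl30 and Mitd1, chr1:37890381-37890507, plus strand: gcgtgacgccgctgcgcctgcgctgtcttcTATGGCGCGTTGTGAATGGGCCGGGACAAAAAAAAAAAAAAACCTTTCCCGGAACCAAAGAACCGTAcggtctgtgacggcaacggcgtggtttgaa
Mrpl57 and Ska3, chr14:57826133-57826269, plus strand: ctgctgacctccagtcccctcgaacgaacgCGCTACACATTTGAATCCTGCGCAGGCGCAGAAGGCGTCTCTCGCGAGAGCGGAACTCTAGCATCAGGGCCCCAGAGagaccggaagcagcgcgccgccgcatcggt
Mrpl43 and Twnk, chr19:45006412-45006588, minus strand: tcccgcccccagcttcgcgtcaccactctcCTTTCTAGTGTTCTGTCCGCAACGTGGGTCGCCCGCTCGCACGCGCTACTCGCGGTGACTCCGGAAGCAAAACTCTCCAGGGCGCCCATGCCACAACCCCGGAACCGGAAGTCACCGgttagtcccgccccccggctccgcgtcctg
Mrps12 and Sars2, chr7:28741791-28741998, minus strand: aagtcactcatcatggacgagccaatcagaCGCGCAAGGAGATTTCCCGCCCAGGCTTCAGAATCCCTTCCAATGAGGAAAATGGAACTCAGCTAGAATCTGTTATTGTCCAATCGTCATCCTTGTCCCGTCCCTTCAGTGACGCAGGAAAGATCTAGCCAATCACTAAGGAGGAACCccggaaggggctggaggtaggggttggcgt
The stretch of Mrps11 and Mrpl46 is the only one of the 7 with a member at both ends, a small subunit gene and a large subunit gene that start 42 bp apart. The capitals cover 32 bp between the starts of Mrpl21 and Ighmbp2, a helicase gene, and 147 bp between those of Mrps12 and Sars2.

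Every one of the 78 genes had at least 1 peak in the gene or within 5000 bp on either side, beside 63.8% of all protein-coding genes. Within 1000 bp of the gene start a peak was present for 77 of the 78, 98.7% (all protein-coding genes, 54.2%). Gene starts came from the RefSeq promoter table, which gives the strand for 69 members. For the other 9, either annotated end of the gene was allowed to be the start. In all 69 genes with a strand the first base itself lay under a peak, against 49.3% of the protein-coding genes with a strand. By subunit name, 48 of 49 large subunit genes and 29 of 29 small subunit genes had a start peak.

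The exception was Mrpl4, a large subunit gene on chr9:21001252-21008839 whose strand is not given. Its only peak, 1769 bp wide, lay inside the gene, 1037 bp from the nearer annotated end and so just beyond the 1000 bp allowed. With 2500 bp allowed on each side, all 78 counted.

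**Figure D1:**
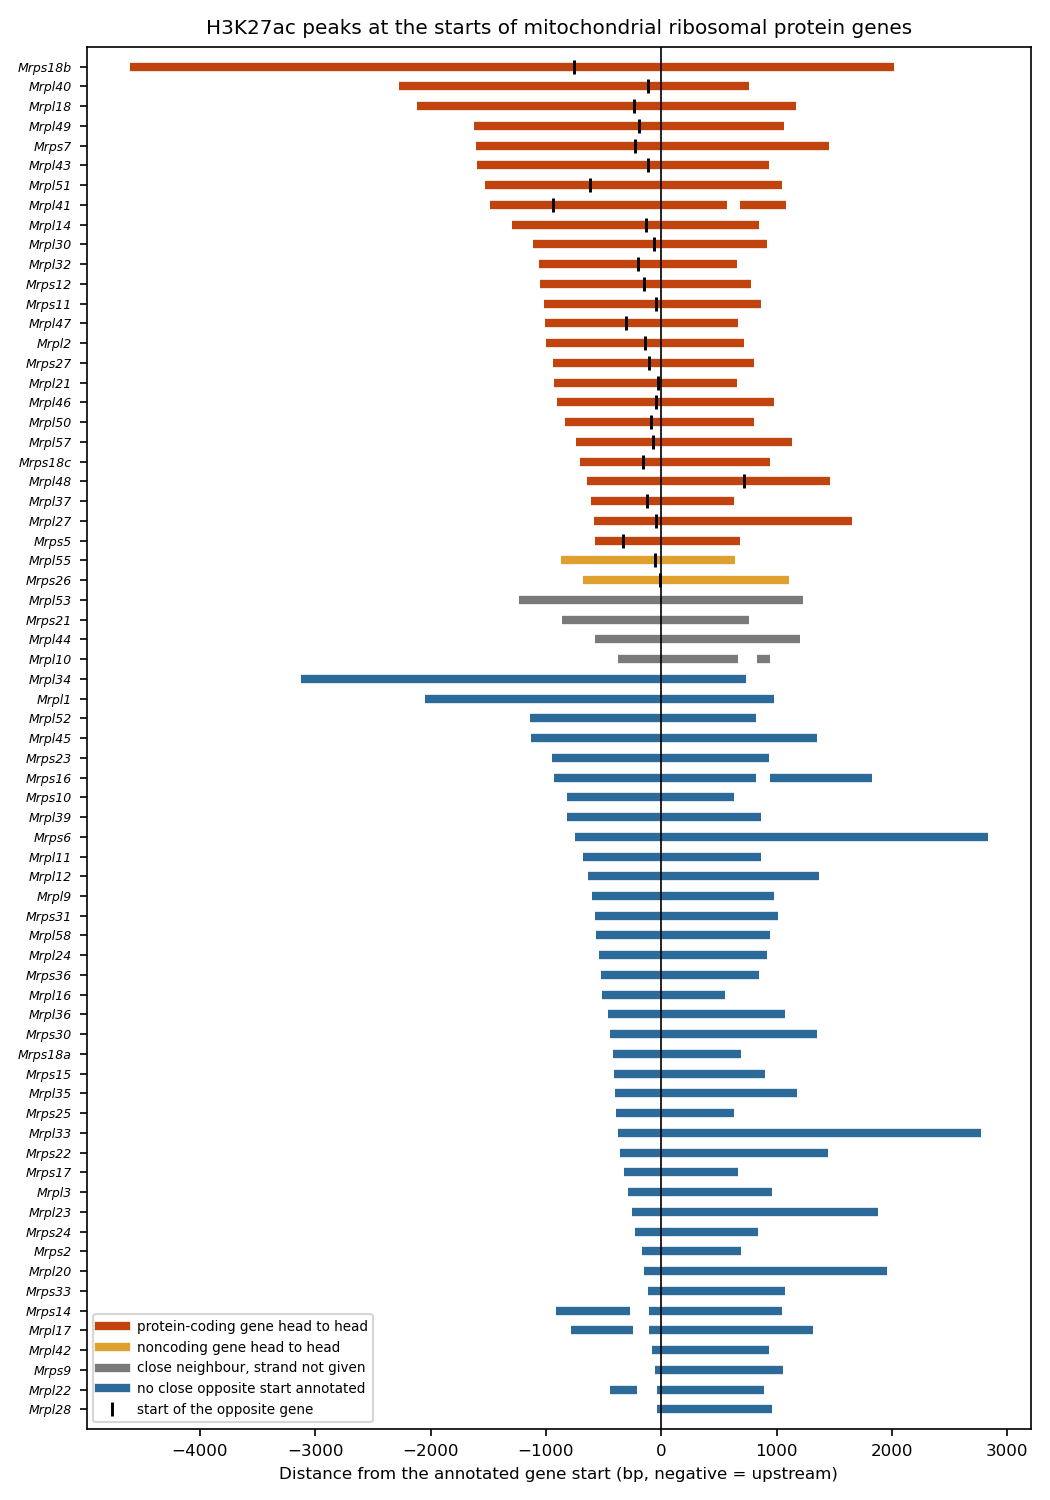
H3K27ac peaks at the starts of the 69 mitochondrial ribosomal protein genes with a known strand. Each bar is a peak, placed by its distance in bp from the gene start (vertical line), with negative values upstream, and black ticks mark the start of an opposite gene. Bars cross the line in every row, and those of genes with an opposite protein-coding gene reach further upstream than most of the others.

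The start peaks were of a moderate and rather even width. The widest start peak of each gene had a median of 1743 bp over the 77 genes, with quartiles of 1417 and 2076 bp. Over all 11718 protein-coding genes with a start peak the median was close, 1808 bp, but the spread was wider, with quartiles of 1182 and 2651 bp. Widths of 1000 to 2500 bp were found in 60 of the 77 genes (77.9%), beside 52.9% of all genes with a start peak. In no member was the widest start peak below 500 bp, beside 6.84% of all genes with a start peak. In 1 it exceeded 5000 bp (1.30%), beside 6.30%. Narrower additional start peaks did occur, such as one of 115 bp in Mrpl10 and one of 402 bp in Mrpl41. Large subunit genes had a median of 1880.5 bp and small subunit genes one of 1621 bp, with overlapping ranges of 927 to 3860 bp and 858 to 6630 bp.

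Genes for the cytosolic ribosome differed from those for the mitochondrial one in this measure. A start peak was present for 71 of 74 cytosolic ribosomal protein genes, and the median width was 2946 bp, with quartiles of 2381 and 3598 bp. The filter against -like copies also removed Rpl3, Rpl4, Rpl5, Rpl6, Rpl7, Rpl8 and Rpl9. These large subunit genes are therefore missing from every value of the cytosolic list, here and below. The lower quartile of the cytosolic list thus lay above the upper quartile of the mitochondrial list. Only 21 of the 71 cytosolic genes (29.6%) had widths of 1000 to 2500 bp. Subunits of the respiratory chain had a start peak at 79 of 88 genes and a median width of 1830 bp, closer to the mitochondrial ribosomal proteins. Their share of widths between 1000 and 2500 bp was 70.9%, and that of other mitochondrial translation genes 72.4%, so the even width was also found in these lists. None of these differences was tested, since the lists hold positions from a single peak list.

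**Figure D2:**
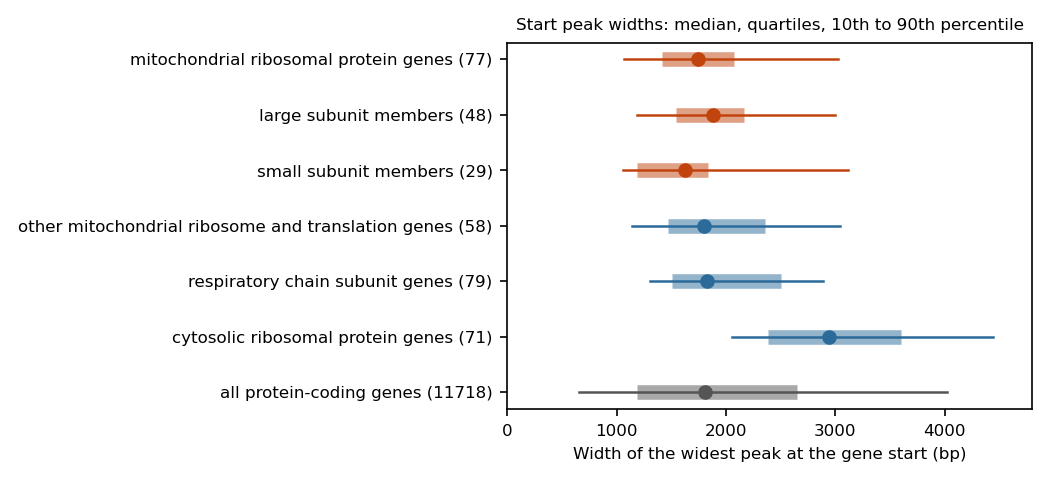
Width in bp of the widest peak at the gene start in the members, their subunits, other gene lists and all protein-coding genes with a start peak (dot, median; bar, quartiles; line, 10th to 90th percentile). The mitochondrial ribosomal protein genes have a median of 1743 bp and the cytosolic ones of the list, which lacks Rpl3 to Rpl9, a median of 2946 bp.

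The widest start peak belonged to Mrps18b, a small subunit gene with the paralogues Mrps18a and Mrps18c. It measured 6630 bp and also covered the start of Ppp1r10, a regulatory subunit of protein phosphatase, 756 bp away on the other strand. Mrps18c had a start peak of 1649 bp, shared with the helicase gene Helq, and Mrps18a one of 1116 bp with no opposite gene. The 3 paralogues therefore spanned nearly the whole range of the members. Next in width came Mrpl34 with 3860 bp, in a peak that reached 3122 bp upstream and covered the start of Abhd8, which lies on the other strand too far away to count as a pair, Mrps6 with 3580 bp, and Mrps34 with 3340 bp. Mrps6 encodes a protein of the small subunit, and its peak also held the start of Slc5a3, an inositol transporter gene. At the other end were Mrps2 with 858 bp, Mrpl22 with 927 bp, Mrps17 with 989 bp and Mrpl28 with 996 bp, none of which has an annotated head-to-head gene.

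Members with well-known roles were described next. Mrps12, whose product sits at the decoding site of the small subunit, had a 1836 bp peak. The peaks of Mrps5 and Mrps7, both small subunit genes, measured 1261 and 3060 bp. Mrpl3, which lies near the site of peptide bond formation, had 1245 bp. Mrpl11 and Mrpl12, of the stalk region that binds translation factors, had 1541 and 2003 bp. Mrpl58, a member with the activity of a peptidyl-tRNA hydrolase that frees stalled ribosomes, had 1506 bp. Mrpl37 measured 1239 bp, Mrpl44 1774 bp and Mrps35 1223 bp. Of these 10 genes all but Mrps7 lay between 1223 and 2003 bp, and the subunits were interleaved. The same list of roles held the Mrps18 genes described above, of which Mrps18b (6630 bp) and Mrps18a (1116 bp) lay outside that range. The peaks of Mrps12, Mrps5, Mrps7 and Mrpl37 also covered the start of a head-to-head neighbour.

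The bases under peaks in the gene and 5000 bp on each side, called the acetylated length, had a median of 2432.5 bp and a range of 858 to 13667 bp. The median over all protein-coding genes was 1374 bp, and over those with a start peak 2923 bp, while the members with a start peak had 2457 bp. The members are shorter genes, with a median length of 7690.5 bp beside 17329 bp, so their windows held less DNA. Cytosolic ribosomal protein genes had a median of 3769 bp and respiratory chain genes one of 2423.5 bp.

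Most of this length sat at the start. The windows held 182 peaks, 180 of them distinct, of which 88 were start peaks, 54 lay elsewhere in the gene and 40 in the flanks. Start peaks gave 154774 of the 232320 bp (66.6%). In 34 genes they were the only peaks, and 30 genes had a single peak in the whole window. The other peaks were smaller, with a median of 658 bp, and 21 of them lay near the start of another protein-coding gene. This split by place is for the members only, without the same over all protein-coding genes. Whether it is particular to the members was not tested. Of the 46 members at least 5000 bp long with a known strand, 6 had a peak at the finish (13.0%), beside 9.69% of such protein-coding genes.

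Mrpl1 stood apart from the other members, with 10 peaks and 13667 bp. Its product belongs to the L1 stalk, by which spent tRNAs leave the large subunit. Only 3022 bp (22.1%) of this lay at the start, and 9726 bp lay elsewhere in the gene, most of it in a single peak of 5945 bp at chr5:96218459-96224403. Mrps18b followed with 8593 bp, 77.2% of it in the wide start peak described above. Mrpl48 had 6140 bp, all of it in 3 start peaks, since the promoter table lists 4 starts for this gene. Mrpl58 had 6063 bp with 24.8% at the start, Mrps6 6033 bp with 59.3%, and Mrpl45, whose product anchors the ribosome to the inner membrane, 5995 bp with 41.5%. Long acetylated lengths thus came from the start in some members and from elsewhere in others. The shortest belonged to Mrps2 (858 bp), Mrps17 (989 bp), Mrpl42 (1020 bp), Mrps25 (1029 bp), Mrps24 (1063 bp) and Mrpl16 (1072 bp), and in each of these 6 a single start peak was the whole of it.

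**Figure D3:**
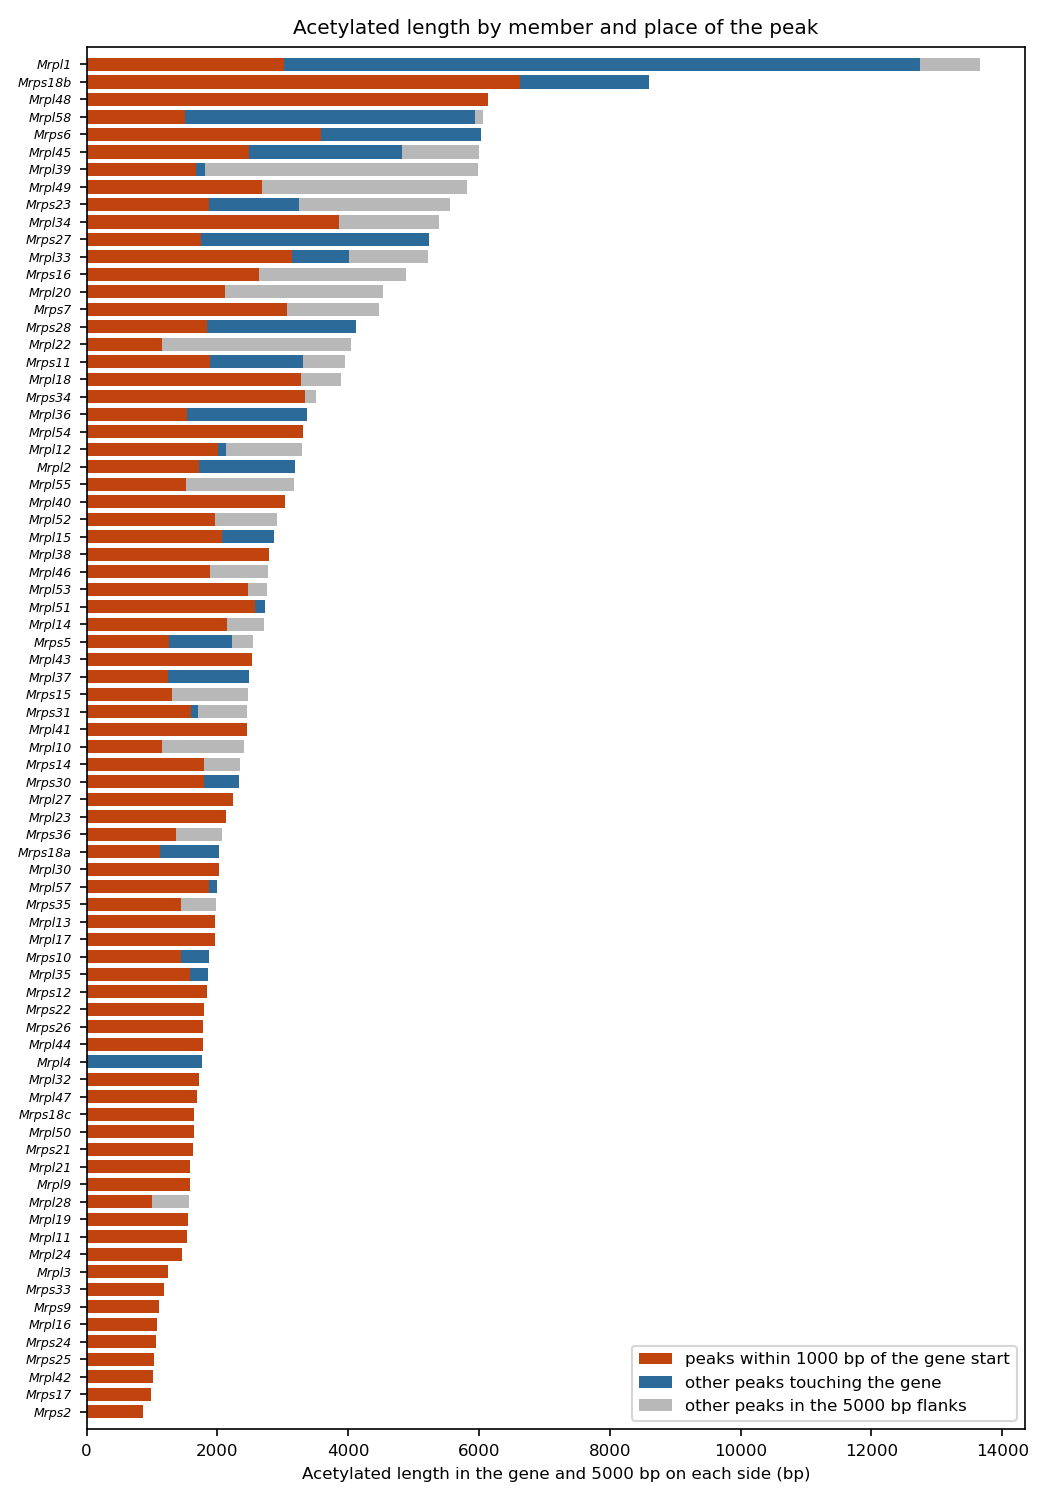
Bases under H3K27ac peaks in each of the 78 genes and 5000 bp on each side, split into the part at the gene start, elsewhere in the gene and in the flanks. Mrpl1 leads with 13667 bp, most of it away from the start, and the shortest bar, of Mrps2, is 858 bp.

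Head-to-head neighbours were found for 25 of the 69 members with a strand (36.2%). Of all protein-coding genes with a strand 9.73% had one, and of those whose start lay under a peak 17.6%. The share was 41.9% in the large subunit (18 of 43) and 26.9% in the small subunit (7 of 26). Respiratory chain genes had 21 of 70 and cytosolic ribosomal protein genes 7 of 57 (12.3%). The count could be higher, since 3 more of the 69 had a close protein-coding neighbour whose strand is not given: Mrpl44 with Wdfy1 at 125 bp, Mrpl53 with Ccdc142 at 13 bp and Mrpl10 with Lrrc46 at 213 bp. The counts over all genes have the same limit.

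In all 25 members 1 peak covered both starts, beside 1402 of all 1681 head-to-head protein-coding genes (83.4%). The start itself lay under a peak in all 25 members but in only 1501 of the 1681 genes, so the 2 shares do not start from like sets. The 25 members made 24 pairs, and the distance between starts had a median of 131 bp, beside 159 bp over all genes. Starts at most 300 bp apart were found for 20 of the 25. The closest pair was Mrpl21 with Ighmbp2, whose 32 bp lay under a 1588 bp peak. Mrpl48 and Rab6a, the gene of a Golgi GTPase, overlapped head to head by 36 bp under a 2110 bp peak. The overlap was counted from 1 of the 4 starts listed for Mrpl48, which is not the outermost. Mrps11 and Mrpl46, the only pair made of 2 members, shared a 1887 bp peak at chr7:78782111-78783997. Mrpl27 and the endonuclease gene Eme1 started 48 bp apart under 2241 bp, Mrpl30 and Mitd1 66 bp apart under 2025 bp, and Mrpl57 and the kinetochore gene Ska3 76 bp apart under 1874 bp.

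The partners came from many processes. Of the 25 coding neighbours, 1 was a respiratory chain gene (Ndufb5, beside Mrpl47), 1 was on the list of other mitochondrial translation genes (Sars2, beside Mrps12) and none was a cytosolic ribosomal protein gene of the list. Fau, which is outside that list and encodes a protein of the cytosolic small subunit fused to a ubiquitin-like one, starts 192 bp from Mrpl49. Further mitochondrial partners were Twnk, the helicase of mitochondrial DNA, 116 bp from Mrpl43, and Ptcd2, a mitochondrial RNA-binding protein, 108 bp from Mrps27. Others served general cell functions: the histone chaperone gene Hira beside Mrpl40 at 113 bp, the proteasome gene Psma2 beside Mrpl32 at 205 bp, the chaperonin gene Tcp1 beside Mrpl18 at 238 bp, and the condensin gene Ncapd2 beside Mrpl51 at 614 bp. The widest spacing was between Mrpl41 and Pnpla7, 935 bp under 1 peak of 2055 bp.

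The arrangement went with the shape of the start peak. In the 25 members with a head-to-head neighbour the peak over the start reached a median of 1020 bp upstream and 866 bp downstream, and the upstream arm was the longer in 18 (72.0%). In the 42 members with no resolved opposite gene of any type it reached 451.5 bp upstream and 949.5 bp downstream, and the upstream arm was the longer in 8. The quartiles of upstream reach were 838 and 1525 bp in the former and 264.5 and 729.75 bp in the latter, which did not overlap. Downstream reach differed much less. Over all protein-coding genes with a covered start the same medians were 1114 and 1056 bp with a head-to-head neighbour (1501 genes), and 628 and 1078 bp without one (6276 genes). The upstream arm was longer in 52.6% and 20.9% of them. The upstream arm of a member with such a neighbour includes the first bases of that neighbour. Mrpl48 is the exception, since its reach was counted from its outermost listed start, and the start of Rab6a lies downstream of it.

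**Figure D4:**
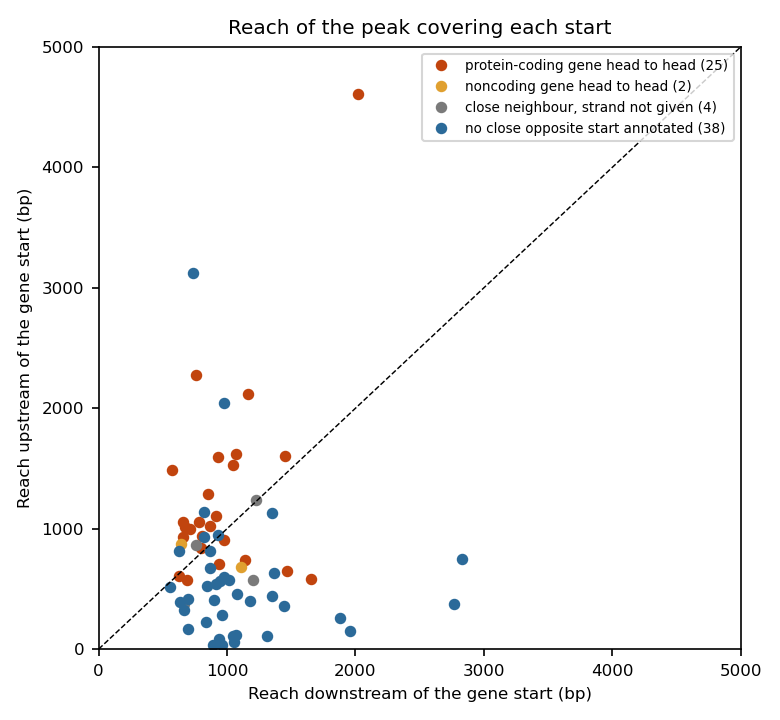
Distance in bp from the gene start to the downstream (horizontal axis) and upstream edge (vertical axis) of the peak over it. Each dot is one of the 69 members with a strand, coloured by its opposite neighbour, and the dashed line marks equal reach. Median upstream reach is 1020 bp with a head-to-head protein-coding neighbour and 451.5 bp with no resolved opposite gene.

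Some peaks ended just before the start. An upstream reach below 200 bp was seen in 9 of the 42 members with no resolved opposite gene (21.4%). It was seen in none of the 25 with a head-to-head protein-coding neighbour. The same shares over all genes with a covered start were 16.7% and 6.73%. Leaving out members with a close neighbour of unknown strand, it was 9 of 38 (23.7%). The 9 were Mrpl22 and Mrpl28 with 37 bp each, Mrps9 with 59 bp, Mrpl42 with 83 bp, Mrpl17 with 105 bp, Mrps14 with 106 bp, Mrps33 with 119 bp, Mrpl20 with 153 bp and Mrps2 with 164 bp. In 3 of them a second peak lay further upstream across a short gap: 175 bp in Mrpl22, 139 bp in Mrpl17 and 165 bp in Mrps14. For Mrps14 the upstream peak ran from position -915 to -272, counted from the start, and the next from -106 to 1046. In these 3 genes the gap lay upstream of the peak over the start, with a called peak on each side of it.

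The promoter windows, 250 bases before and 50 after each start, were searched on both strands for the exact letters of 10 motifs. A match is a description of the letters and not a bound site. The letters CCGGAAG, for ETS factors such as GABPA, stood in 24 of 69 member windows (34.8%), beside 12.1% of all 17274 windows and 21.3% of those whose start lay under a peak. The letters AAGATGG, for YY1, stood in 13 (18.8%), beside 6.40% and 7.74%, and GCGCATGC, for NRF1, in 8 (11.6%), beside 3.64% and 6.08%. In background knowledge, GABPA, NRF1 and YY1 are factors with many targets among nuclear genes for mitochondrial proteins. At least 1 of these 3 motifs was present in 36 of the 69 windows and none in 33, a count made for the members only and not over all windows. The GGGCGG letters of SP and KLF factors stood in 34 (49.3%), beside 46.9% and 68.8%, and CCAAT, of NFY, in 27 (39.1%), beside 39.6% and 38.6%.

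Letters of other factors were less common. TTCNNNGAA, in which N is any base, is the site of STAT factors, which act in T cell cytokine signals, and stood in 6 windows (8.70%), beside 7.87% of all windows. The E-box CACGTG of MYC and USF stood in 5 (7.25%), beside 8.01%. TATAAA, the TATA box, stood in 4 (5.80%), beside 13.4% of all windows and 6.05% of those under a peak. TGACGTCA, of CREB and ATF factors, stood in 2 (2.90%), and TCTCGCGA, of ZBTB33 and related factors, in 1 (1.45%), beside 2.36% and 1.55%.

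**Figure D5:**
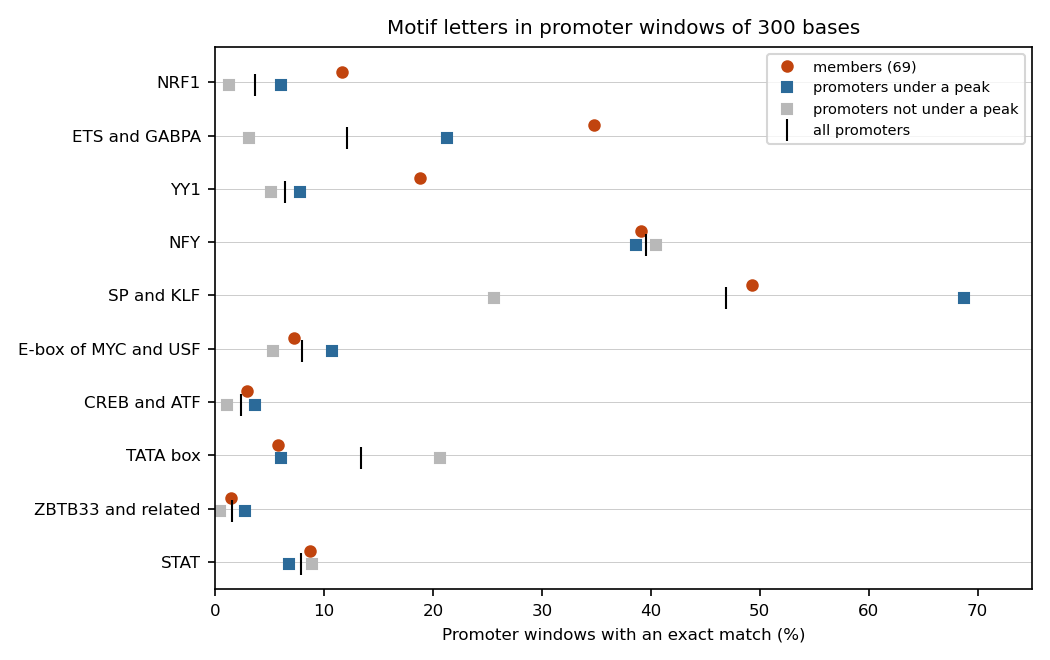
Percent of promoter windows that hold an exact match to each motif, for the 69 members, for all windows, and for windows whose start lies or does not lie under a peak. Members stand to the right of the other groups for ETS, YY1 and NRF1 letters (34.8%, 18.8% and 11.6%).

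Where the letters stood in the window is shown by the sites below, each 30 bases long, read 5′ to 3′ in the direction of the gene, with the motif in capitals. NRF1 letters that begin at most 33 bp before the start were found in 5 members, all named for the large subunit. This limit is the position of the furthest site printed. It leaves out Mrps18b, where NRF1 letters begin 28 bp after the start. Sites are shown for 4 of the 5.
Mrpl17, chr7:105811080-105811109, minus strand: gccgagttactGCGCATGCgtcctctgaga
Mrpl33, chr5:31613928-31613957, plus strand: taccggaacccGCGCATGCcccggaagtag
Mrpl9, chr3:94443297-94443326, plus strand: gaggcgcagctGCGCATGCgcggggtcctt
Mrpl22, chr11:58171620-58171649, plus strand: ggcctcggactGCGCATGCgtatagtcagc
The letters begin 11 bp before the start in Mrpl17, 12 bp in Mrpl33, 28 bp in Mrpl9 and 33 bp in Mrpl22. Mrpl17 and Mrpl22 are also among the genes whose peak ended just before the start, and there the NRF1 letters lie inside the covered part. The ETS letters of both genes lie in the gap upstream of that peak instead. In Mrpl22 they run from -53 to -47 bp, in a gap from -212 to -38 bp. In Mrpl17 they run from -237 to -231 bp, in a gap from -244 to -106 bp.

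ETS letters stood near the start, with a median position of -16.5 bp from it over 28 matches, and 8 of the 28 at or after the start. The following 4 are of genes with no head-to-head neighbour.
Mrpl3, chr9:105053238-105053267, plus strand: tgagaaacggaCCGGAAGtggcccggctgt
Mrpl58, chr11:115403724-115403753, plus strand: ctggcggaccgCCGGAAGagtgagcaccgg
Mrps22, chr9:98601672-98601701, minus strand: aacctctcgagCCGGAAGttgctctatcga
Mrps18a, chr17:46110967-46110996, plus strand: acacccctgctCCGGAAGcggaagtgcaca
These stand between 26 and 11 bp before the start, Mrps18a being the furthest and Mrps22 the nearest. The Mrpl43 stretch printed above holds the same letters, and its match nearest to the start begins 12 bp before it.

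YY1 letters were different in place. Of 15 matches, 9 were at or after the start, and 8 of these 9 read forward, as in the 6 sites below.
Mrps7, chr11:115604147-115604176, plus strand: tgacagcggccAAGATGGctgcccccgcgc
Mrps27, chr13:99344789-99344818, plus strand: tggtgcgctccAAGATGGcggctcccatgg
Mrps18a, chr17:46111004-46111033, plus strand: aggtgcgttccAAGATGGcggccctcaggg
Mrpl37, chr4:107066822-107066851, minus strand: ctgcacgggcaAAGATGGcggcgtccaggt
Mrpl42, chr10:95501904-95501933, minus strand: cagattgaagcAAGATGGcgagcgcgcggt
Mrpl49, chr19:6057721-6057750, minus strand: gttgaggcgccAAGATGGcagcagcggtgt
In these 6 the first letter lies between 11 bp (Mrps18a) and 27 bp (Mrpl42) after the start, within the transcribed part of the gene. Mrps7, Mrps27, Mrpl37 and Mrpl49 have head-to-head partners and the other 2 do not.

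Windows with a head-to-head neighbour and those without differed most in GC-rich letters. GGGCGG stood in 72.0% of the 25 windows with a neighbour and in 36.4% of the 44 without one, and the CG dinucleotide count had medians of 24 and 17.5. ETS letters stood in 40.0% and 31.8%, and YY1 letters in 28.0% and 13.6%. The other way round, CCAAT stood in 28.0% with a neighbour and 45.5% without one, and NRF1 letters in 8.00% and 13.6%. A window with a neighbour can run past the start of that neighbour, into the neighbour's own gene. The only YY1 letters of Mrps12, Mrps11 and Mrpl32 begin there, at -198, -106 and -241 bp. Their neighbours start 147, 42 and 205 bp away. The same split over all windows is not given, so these shares have no background beside them. Over all member windows the median CG dinucleotide count was 21, beside 14 over all windows, 22 over those under a peak and 4 over the rest. The GC content of member windows ranged from 42.3 to 78.0%, with a median of 58.3%, beside 56.3% over all windows and 61.7% over those under a peak. By CG dinucleotides the members thus lay near the windows under a peak, and by GC content between these and all windows.

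Other genes of mitochondrial translation, outside the Mrp naming, were marked at the start as well. All 58 genes of this list had a start peak, with a median width of 1803.5 bp and a median acetylated length of 2450 bp, both close to the members' own. Of the 47 with a strand 14 (29.8%) had a head-to-head neighbour, and in all 14 a single peak covered both starts. Dap3 and Ptcd3, which are ribosomal proteins of the small subunit without the Mrp name, had start peaks of 2960 and 2698 bp. The elongation factor genes Tufm, Tsfm and Gfm1 had 1990, 916 and 1315 bp, and the initiation factor gene Mtif2 had 2012 bp. Tfam, which packages mitochondrial DNA and starts its transcription, had 1987 bp, and Lrpprc, which stabilises mitochondrial messages, had 2012 bp. Polrmt, the mitochondrial RNA polymerase, was lowest, with a widest start peak of 378 bp and 700 bp in all. That width lies below the widest start peak of every one of the 77 members with a start peak. Fars2 was at the other extreme, with 34275 bp under 31 peaks, in the large window of a long gene (chr13:36117428-36537595).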

How the data were processed

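H3K27ac ChIP-seq was made on Th17 cells in 2 IP and 2 input libraries. The submitters' processing notes name Bowtie2 2.3.4.1, SAMtools 1.9, MACS2 2.2.6, deepTools and the build GRCm38 (mm10). No source used here gives the peak threshold or says whether replicates were pooled. The deposited list holds positions only, with no score or count. Its peak names share 1 prefix, which includes WT_Ddx5 and which the labels do not explain. Their running numbers go from 15 to 71449 for 56285 peaks, so numbers are skipped. The smallest peak was 100 bp.

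Genes, starts and 300-base promoter windows came from RefSeq tables of GRCm38.p6. Strand was given for 17274 of 21631 protein-coding genes and 69 of 78 members. An overlap needed at least 1 bp. Motifs were exact matches, and the code was tested on simulated data. Peaks are printed counted from 1.

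Shares and medians are descriptions without tests, and most stand beside the same over all protein-coding genes. Members, lists and the rule for named genes (no start peak, longest and shortest length, closest pairs, widest and narrowest peaks, fixed roles) were chosen with earlier results of these data known. The 9 genes with a short upstream reach, the partners beyond the closest pairs, Fars2 and the printed motif sites were picked after their values were seen. Some markers and 1 motif of the design are not reported here. Alternatives used other windows, flanks, peak widths and distances. Python 3.11.15, numpy 2.4.6, pandas 2.3.3 and matplotlib 3.10.9 were used.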

Additional observations from a re-analysis of the deposited data

How the results depend on the processing

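All 78 members had a peak in their window under each flank tried and with peaks of at least 500 bp, and 75 had one with peaks of at least 1000 bp. The count with a start peak stayed between 73 and 78 over the alternatives, the lowest with peaks of at least 1000 bp and with the peak midpoint required in the window, where the shares of all protein-coding genes were 43.9% and 49.7%. With a window of 2500 bp that share was 56.0%. The median start peak width ranged from 1715 to 1797 bp. The median acetylated length moved with the flank, as the window itself changes: 1160 bp for the gene alone, 1881 bp with 1000 bp on each side and 3717 bp with 20000 bp. It was 2267 and 2008 bp with peaks of at least 500 and 1000 bp. Members with a head-to-head neighbour numbered 20 at a distance of at most 300 bp and 27 at 2500 bp or with genes of any type. A single peak served both starts in all pairs with starts at most 300 bp apart, with merged peaks and with 500 bp allowed around each start. This was not run for the 2500 bp distance. Counting only members with a strand was chosen after seeing the data. No paired analysis was possible because the list holds no value per library, and no replicate could be left out for the same reason. Peak width depends on calling settings and depth, which are unknown here, so it is not a level of acetylation.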

Other observations

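The 6 pseudogenes that carry the same symbols (such as Mrpl23-ps1, Mrpl48-ps and Mrps36-ps1) had no peak in their span or within 5000 bp of it, unlike the 78 genes. The share of all annotated pseudogenes without a peak is not given here, so this count has no background beside it.

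Some motif letters differed between the lists of related genes and others did so less. NRF1 letters stood in 14.3% of 70 respiratory chain windows and 12.8% of 47 windows of other mitochondrial translation genes, near the members' 11.6%, and in 1.75% of 57 cytosolic ribosomal protein windows. ETS letters stood in 22.9%, 29.8% and 38.6% of the same lists. YY1 letters were more alike, in 14.3%, 19.1% and 15.8% of them, beside 18.8% of the members, so their share was not particular to the members. TCTCGCGA stood in 10 of the 57 cytosolic windows (17.5%) and in 1 of the 69 mitochondrial ribosomal protein windows (1.45%). None of these differences was tested.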
